A study of Rattus norvegicus with 18 samples.

Results

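Genes known as markers of the striatal medium spiny neuron were followed in the prefrontal cortex (PFC) of rat pups exposed to oxycodone (oxy). The 9 genes are Tac1, Adora2a, Gpr6, Adcy5, Pde10a, Pde1b, Ppp1r1b, Rgs9 and Syndig1l, found by their symbols among 32623 genes, and each symbol matched 1 gene. RNA-Seq was performed on the PFC of 18 Sprague Dawley pups at postnatal day 14 (P14), with 6 pups in each of 3 groups. Pups of the saline control group (SAL) came from dams given saline in place of oxy. In the post-natal group (PNO), dams received 15 mg/kg/day of oxy by gavage from parturition onwards, so the drug reached the pups only after birth. In the in utero group (IUO), dams were gavaged from before mating, starting at 10 mg/kg/day and rising to 15 mg/kg/day, and treatment went on through gestation and lactation. The drug was thus given to the dam in both exposed groups, and the dose that reached a pup is not given. Neither the dam nor the sex of each pup is given in the sample labels, and pups of 1 dam would not be independent. Replicate numbers below are those of the sample titles.

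Medium spiny neurons are the GABAergic projection neurons that make up most of the striatum. Dopamine and adenosine act on them through receptors that raise or lower cyclic AMP (cAMP), protein kinase A and a phosphatase inhibitor carry the signal on, and phosphodiesterases end it. Neurons of the direct pathway carry the dopamine D1 receptor and substance P, while neurons of the indirect pathway carry the D2 receptor, the adenosine A2a receptor and enkephalin. The cortex holds few or no medium spiny neurons, but several of the 9 genes are also transcribed in cortical neurons: Tac1 in a class of interneurons, and Ppp1r1b and Pde1b in pyramidal cells.

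The sum of the expected counts per pup ranged from 18381819 to 26084780, with a median of 22726306. All 9 members passed the filter on low counts, which left 15703 genes for testing. The member with the fewest counts in any pup was Adora2a, with 101 expected counts, and the most was reached by Ppp1r1b with 16576. Defining genes of medium spiny neurons outside the 9 were detected in every pup: Drd1 (dopamine D1 receptor) at 6.94 to 60.5 CPM (counts relative to the effective total of the library), Drd2 (D2 receptor) at 4.29 to 67.1 and Penk (proenkephalin) at 18.5 to 314. Summed markers of cortical projection neurons reached 1751 to 5389 CPM over the 18 pups. Both sets of transcripts were thus detected in every library, but the cells that held them were not identified. In bulk tissue, fewer cells of a type and less RNA per cell cannot be told apart.

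Per length, on the TPM scale (transcript abundance scaled to a common total), Ppp1r1b had the highest level of the 9, with a median of 150 TPM over the 18 pups. Tac1 (66.9 TPM), Pde1b (65.6) and Adcy5 (47.8) came next. A lower set held Adora2a (19.9), Pde10a (18.5), Rgs9 (15.7), Syndig1l (10.1) and Gpr6 (9.52). The ranges over the pups overlapped for every pair of neighbours in this order, from Ppp1r1b (25.5 to 754 TPM) against Tac1 (42.8 to 163 TPM) down to Syndig1l (6.14 to 32.0 TPM) against Gpr6 (5.73 to 28.4 TPM). Differences between these levels were not tested.

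The 9 genes differed widely between pups. Adora2a differed 30.9-fold between the lowest and the highest of the 18 pups, Ppp1r1b 28.2-fold and Rgs9 22.7-fold. The other 6 were less variable, with ratios of 7.63 for Pde10a, 5.64 for Gpr6, 5.30 for Syndig1l, 4.72 for Tac1, 4.17 for Pde1b and 3.47 for Adcy5. Within groups, Adora2a spanned 28.3-fold in SAL, 21.1-fold in PNO and 5.69-fold in IUO. The SD of log2 CPM within groups ranged from 0.58 (Adcy5) to 1.75 (Adora2a), with a median over the members of 0.87. Over all 15703 genes tested the median SD was 0.25, and over the 9925 genes with a mean of at least 10 CPM it was 0.19. Only 0.751% of the genes tested had a larger SD than Adora2a, and 13.5% had a larger one than Adcy5.

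The values of each gene in the pups are given next by role, beginning with the ligand. Tac1 encodes the precursor of substance P and neurokinin A. It ranged from 21.5 to 80.5 CPM in SAL (median 43.3), from 27.4 to 67.6 CPM in PNO (median 38.7) and from 30.9 to 101 CPM in IUO (median 42.1). The highest pups were IUO 2 (101 CPM), IUO 1 (83.5 CPM) and SAL 1 (80.5 CPM), the lowest was SAL 6, and the 3 groups overlapped.

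Adora2a encodes the adenosine A2a receptor, which raises cAMP in neurons of the indirect pathway. Its level was 4.85 to 137 CPM in SAL (median 14.9), 4.94 to 104 CPM in PNO (median 13.9) and 26.3 to 150 CPM in IUO (median 50.2). SAL 2, 4 and 6 and PNO 4, 5 and 6 all lay between 4.85 and 7.67 CPM, and the other 12 pups between 21.8 and 150 CPM, with no pup between these ranges. No IUO pup was in the lower range, but SAL 1, SAL 3 and PNO 3, at or above 104 CPM, and PNO 1, at 49.9 CPM, lay within the range of the IUO pups.

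Gpr6, a receptor that raises cAMP without an added ligand and is enriched in the indirect pathway, ranged from 7.09 to 30.0 CPM in SAL (median 13.1), from 8.34 to 31.5 CPM in PNO (median 16.9) and from 10.6 to 39.9 CPM in IUO (median 14.1). The pups IUO 2 (39.9 CPM), PNO 3 (31.5 CPM) and SAL 1 (30.0 CPM) were again the highest of their groups. PNO 5 (23.0 CPM) and PNO 4 (20.6 CPM), which were among the lowest pups in Adora2a, were the next highest in PNO.

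Adcy5 encodes adenylyl cyclase 5, the main enzyme that makes cAMP in these neurons. It was measured at 78.7 to 274 CPM in SAL (median 113), at 83.7 to 205 CPM in PNO (median 102) and at 143 to 273 CPM in IUO (median 176). In SAL and PNO it was at or above 202 CPM in 2 pups each (SAL 1 and 3, PNO 1 and 3) and at or below 113 CPM in the other 4, whereas all 6 IUO pups were at or above 143 CPM.

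The phosphodiesterases degrade cyclic nucleotides. Pde10a, of which the striatum has the highest level in the brain, ranged from 11.5 to 58.5 CPM in SAL (median 28.7), from 10.6 to 60.0 CPM in PNO (median 16.8) and from 29.1 to 80.6 CPM in IUO (median 54.0). Pde1b, which is activated by calcium and calmodulin, ranged from 32.2 to 133 CPM in SAL (median 58.2), from 32.8 to 118 CPM in PNO (median 53.0) and from 63.7 to 134 CPM in IUO (median 88.7). For both genes SAL 1, SAL 3, PNO 1 and PNO 3 lay well within the range of the IUO pups. The other SAL and PNO pups were at or below 31.7 CPM in Pde10a and at or below 58.5 CPM in Pde1b, and the highest of them, SAL 6, was above the lowest IUO pup in Pde10a but not in Pde1b.

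Ppp1r1b encodes DARPP-32, which inhibits protein phosphatase 1 once protein kinase A has phosphorylated it. Its range was 31.9 to 579 CPM in SAL (median 90.4), 28.9 to 558 CPM in PNO (median 92.8) and 131 to 816 CPM in IUO (median 246). The 6 pups that were low in Adora2a were also the 6 lowest here, at 28.9 to 45.7 CPM, while the other 12 lay between 131 and 816 CPM.

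Rgs9, a GTPase-activating protein that shortens the signal of the D2 receptor, ranged from 5.73 to 116 CPM in SAL (median 14.2), from 7.78 to 89.2 CPM in PNO (median 16.5) and from 20.2 to 130 CPM in IUO (median 44.7). Syndig1l encodes a membrane protein related to the synapse differentiation inducer, and ranged from 6.14 to 32.5 CPM in SAL (median 9.06), from 7.39 to 29.6 CPM in PNO (median 10.3) and from 9.03 to 32.4 CPM in IUO (median 14.9). The highest pups of each group were the same for both genes: SAL 1 and 3, PNO 3 and 1, and IUO 2 and 1.

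**Figure D1:**
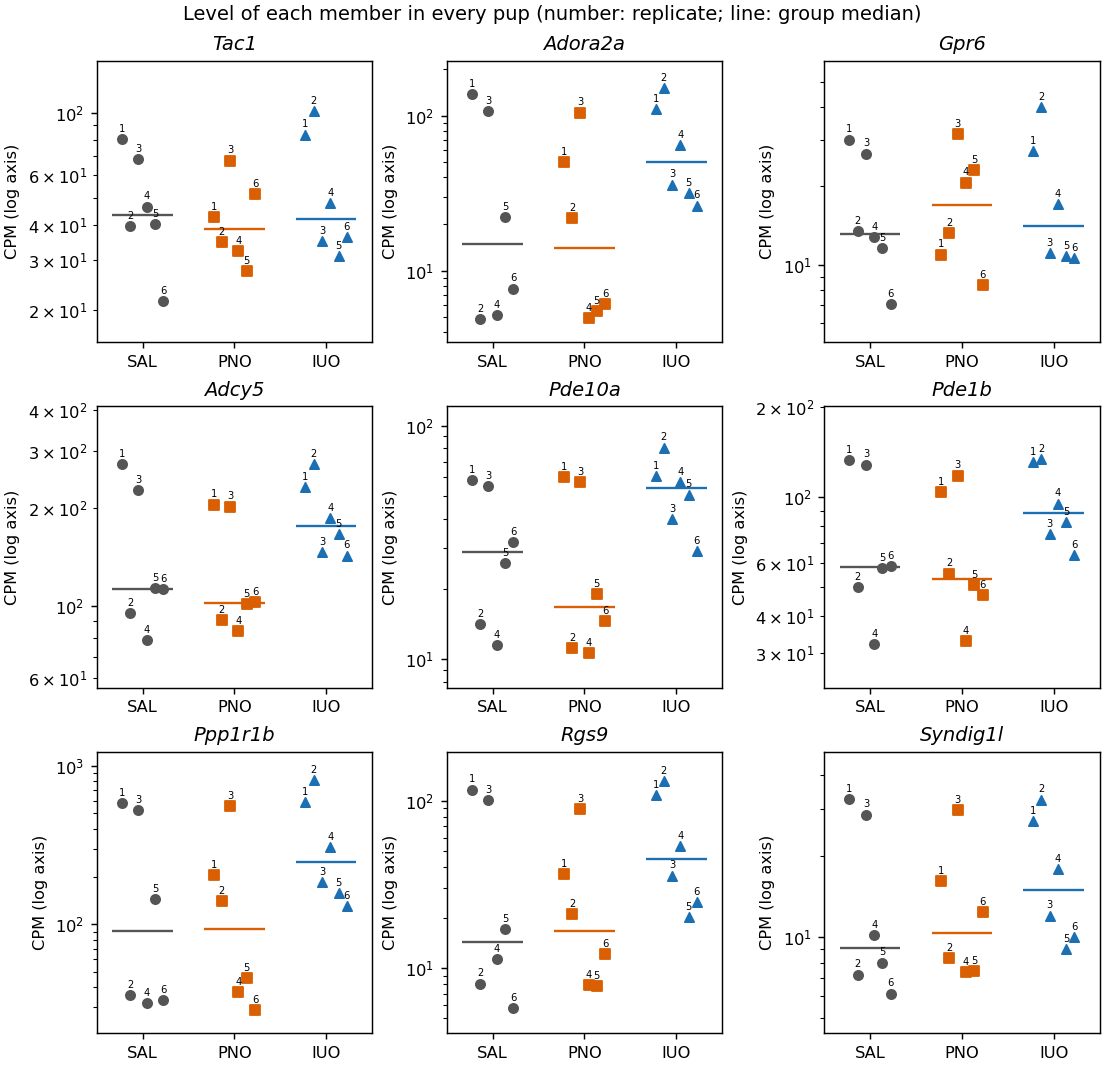
Level of each member in every pup, as TMM-normalized CPM on a log axis, for SAL (circles), PNO (squares) and IUO (triangles). Numbers are replicate numbers and lines are medians of 6 pups. In every panel the highest SAL pup is SAL 1 and the highest IUO pup is IUO 2, and the 3 groups overlap.

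The promoters of 5 of the 9 genes (Rgs9, Pde10a, Tac1, Gpr6 and Adcy5) were found in RefSeq on the GRCr8 build, and the 250 bases before the start were searched on both strands for 5 motifs. Adora2a, Ppp1r1b, Pde1b and Syndig1l had no entry. The promoters of Rgs9, Pde10a and Gpr6 are printed because Rgs9 followed the other members closely from pup to pup, while Pde10a and Gpr6 were the pair least alike (values given further on). They are written 5′ to 3′ on the strand of the gene, and capitals mark matches to the motifs, which appear as the reverse complement where the match is on the opposite strand. The sequences lie at chr10:94770388-94770637 (minus strand) for Rgs9, at chr1:54765669-54765918 (minus strand) for the upstream of 2 starts of Pde10a, and at chr20:46075252-46075501 (minus strand) for Gpr6.
Rgs9: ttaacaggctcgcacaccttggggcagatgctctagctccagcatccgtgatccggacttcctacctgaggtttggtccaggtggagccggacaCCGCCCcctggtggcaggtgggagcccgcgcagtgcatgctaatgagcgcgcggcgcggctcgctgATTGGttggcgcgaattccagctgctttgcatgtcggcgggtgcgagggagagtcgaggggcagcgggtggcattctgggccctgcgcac
Pde10a: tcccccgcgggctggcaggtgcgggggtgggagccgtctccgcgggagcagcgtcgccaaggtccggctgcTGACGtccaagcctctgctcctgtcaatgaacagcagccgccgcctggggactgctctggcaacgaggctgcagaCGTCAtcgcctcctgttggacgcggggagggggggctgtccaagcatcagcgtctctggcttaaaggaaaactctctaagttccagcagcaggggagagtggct
Gpr6: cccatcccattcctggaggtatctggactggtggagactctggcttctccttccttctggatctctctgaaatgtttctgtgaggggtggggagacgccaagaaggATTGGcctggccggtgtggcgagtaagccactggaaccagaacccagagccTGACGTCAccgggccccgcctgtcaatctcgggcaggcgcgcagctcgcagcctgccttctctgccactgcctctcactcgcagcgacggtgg

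The cAMP response element TGACGTCA, the site of the factor CREB, was found in Gpr6 alone among the 5, where it began 93 bases before the start. It is held by 1.59% of 33469 rat promoters of this length. The core TGACG, which is contained in the full element, was found in Pde10a on either strand, beginning 179 and 104 bases before the start, in Tac1 on the opposite strand at 206 bases and in Gpr6 within the full element. It is held by 18.2% of the promoters. A CCAAT box (34.0% of promoters) was found in Rgs9 at 90 bases, in Gpr6 at 144 bases and in Tac1 at 193 and 240 bases. The GC box GGGCGG (30.5% of promoters) was found in Rgs9 at 156 bases, 3 times in Adcy5 and at 210 bases before the second start of Pde10a, whose window is not printed. No TATA box of the letters TATAAA (12.9% of promoters) was found in the windows of the 5 genes. The GC content was 52.4% in Tac1 and 62% to 70% in the other 4, against a median of 51.2% over all promoters. A match of letters is a description of the sequence, and binding was not measured.

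Levels of the 9 genes were then compared pup by pup, to ask whether the same pups were high in all of them. For each of 36 pairs, the correlation of log2 CPM over the 18 pups was computed, with p-values from a two-sided permutation test with 100000 resamples and Benjamini-Hochberg adjustment over the 36 pairs. The median Pearson r was 0.86. All 36 were above 0, 14 were above 0.9, and 35 of 36 had an adjusted permutation p under 0.05 (34 of 36 for Spearman's rho). In 16 pairs p was 1e-05, the smallest value the permutations can give. The values of a pup come from 1 library with 1 scaling, and r describes the pups and no link between genes.

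The highest r was that of Adora2a with Ppp1r1b, at 0.99 (permutation p = 1e-05, rho 0.94, and r 0.99 again without the 2 pups farthest from the median). Rgs9 followed both, with r 0.97 to Adora2a and 0.97 to Ppp1r1b. Pde1b and Adcy5 were correlated at 0.97, Pde10a and Adcy5 at 0.95, and Tac1 and Syndig1l at 0.92. The weakest pair was Pde10a with Gpr6, at r 0.42 (permutation p = 0.0833, rho 0.38), and without the 2 pups farthest from the median its r was 0.53. The median r of a member with the other 8 was 0.92 for Pde1b, 0.91 for Adcy5, Adora2a and Rgs9, 0.89 for Ppp1r1b, 0.87 for Syndig1l, 0.82 for Pde10a, 0.73 for Tac1 and 0.63 for Gpr6.

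**Figure D2:**
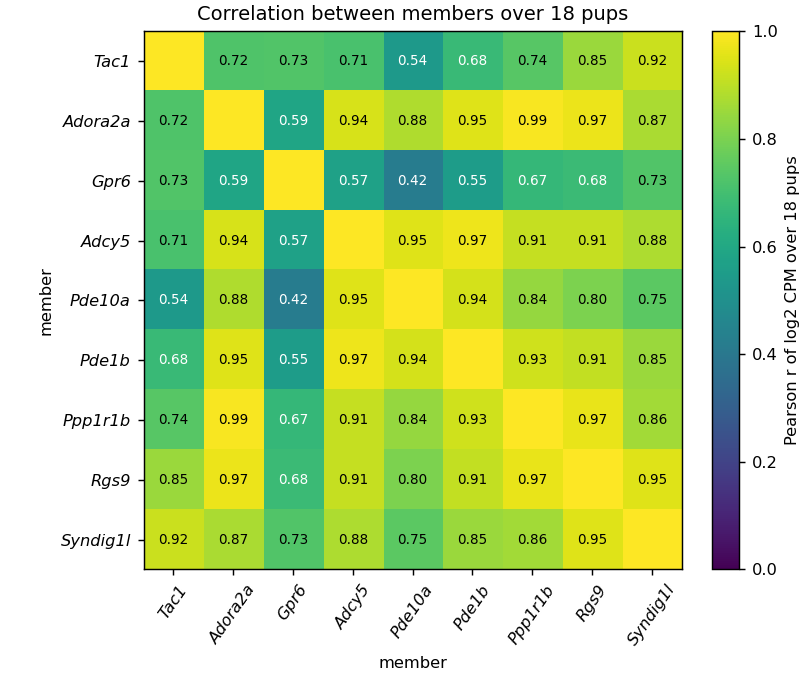
Pearson r of log2 CPM over 18 pups for each pair of members, with the value printed in the cell and the colour running from 0 to 1. Adora2a, Ppp1r1b and Rgs9 form a set with r of 0.97 to 0.99, and the lowest values are those of Pde10a with Gpr6 (0.42) and with Tac1 (0.54).

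The correlation was as high with the group means removed, where the median r was 0.86. Within the groups the median was 0.90 in SAL, 0.81 in PNO and 0.97 in IUO, each over 6 pups. Gpr6 differed from the rest in PNO. Its 8 pairs had r of 0.0044 to 0.38 there, against 0.57 to 0.97 in SAL and 0.85 to 0.99 in IUO, whereas the 28 pairs without Gpr6 had a median of 0.86 in PNO. The difference between the groups in these correlations was not tested.

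The gap in the levels of Adora2a was also considered, a choice made after the values were seen. Among the 12 pups above it the median r of the 36 pairs was 0.93 (0.56 to 0.99), and Adora2a and Ppp1r1b were correlated at 0.98. Among the 6 pups below it, whose levels spanned a narrow range, the median r was -0.30 (-0.74 to 0.97), and Adora2a and Ppp1r1b were correlated at -0.31. Splitting the pups by the level of a member limits r within each part, so these values only describe the pups.

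**Figure D3:**
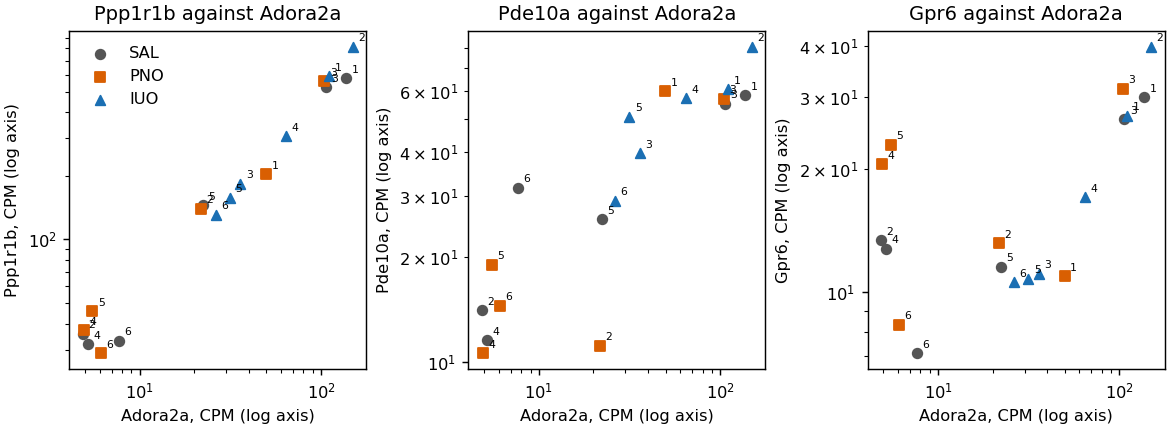
Levels of Ppp1r1b, Pde10a and Gpr6 against Adora2a in each pup, in CPM on log axes, for SAL (circles), PNO (squares) and IUO (triangles), with replicate numbers. Ppp1r1b lies along a line with Adora2a (r 0.99), Pde10a is higher in SAL 6 (31.7 CPM) than in the other pups with low Adora2a, and Gpr6 is higher in PNO 4 and PNO 5 (20.6 and 23.0 CPM).

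To place each pup, the log2 CPM of each member was centred on its mean over the 18 pups and averaged over the 9 genes. This mean was 1.35, -1.09, 1.16, -1.10, -0.36 and -1.12 in SAL 1 to 6. In PNO 1 to 6 it was 0.38, -0.51, 1.15, -1.18, -0.94 and -0.96. In IUO 1 to 6 it was 1.24, 1.57, 0.06, 0.62, -0.07 and -0.21. SAL had 2 pups above 1 and 3 below -1, PNO had 1 above 1 and 1 below -1, and IUO had 2 above 1 and none below -0.21. The median was -0.72 in SAL, -0.73 in PNO and 0.34 in IUO, and SAL 1, PNO 3, IUO 1 and IUO 2 were among the highest 6 pups for all 9 members.

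The ratio between a pair of members also differed from pup to pup. The ratio of Pde10a to Rgs9 in CPM was 0.503 to 0.641 in SAL 1, SAL 3, PNO 2, PNO 3, IUO 1 and IUO 2, but 5.53 in SAL 6, 2.51 in IUO 5 and 2.45 in PNO 5. The ratio of Gpr6 to Adora2a was 4.17 in PNO 4, 4.18 in PNO 5, 2.77 in SAL 2, 2.46 in SAL 4, 1.37 in PNO 6 and 0.925 in SAL 6, the 6 pups lowest in Adora2a. In the other 12 it was 0.219 to 0.605. These ratios show unequal change between a pair of genes and not which of them changed. The denominators ranged more widely over the pups (Adora2a 30.9-fold, Rgs9 22.7-fold) than the numerators (Gpr6 5.64-fold, Pde10a 7.63-fold). High ratios thus follow in part from low denominators.

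**Figure D4:**
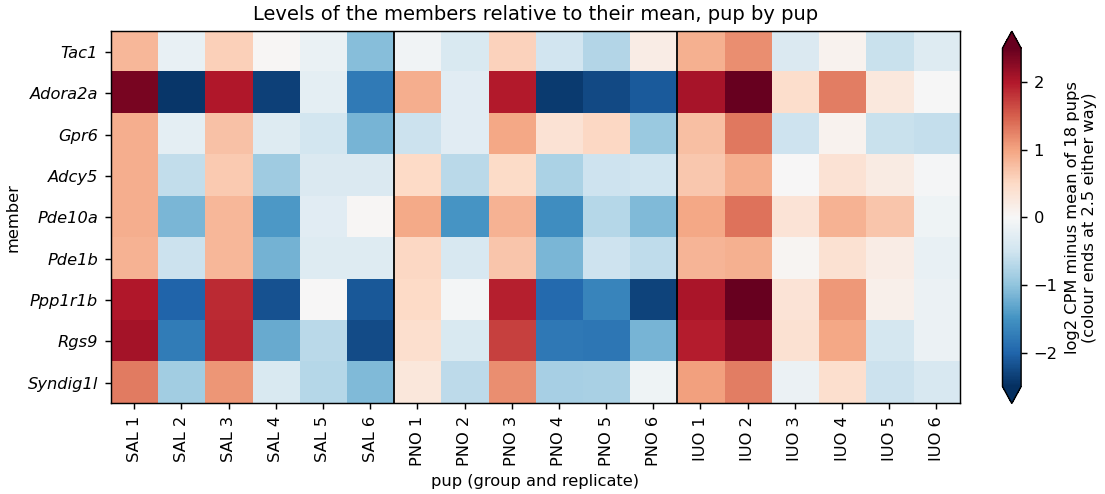
Level of each member in each pup, as log2 CPM minus the mean of the 18 pups, with pups in columns and members in rows; red is above and blue below the mean. SAL 1, SAL 3, PNO 3, IUO 1 and IUO 2 are red in all 9 rows, and SAL 2, 4 and 6 and PNO 4, 5 and 6, with a mean over the members of -1.18 to -0.94, are blue in most.

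The exposed groups were compared with SAL and with each other by edgeR's quasi-likelihood test over all 15703 genes. The comparisons share their groups, so a high or low group enters 2 of them. The members were high or low in the same pups (median r 0.86), so a direction they share does not stand for 9 independent results. Between PNO and SAL, 8 of the 9 members were lower in PNO and Gpr6 was higher, with a median log2 fold change of -0.20 (all genes 0.0033, with 50.8% of them higher). None of the 9 passed an adjusted p of 0.05 (background 0%), and 0 of 9 had an unadjusted p under 0.05 (background 4.5%). The ranges of the groups overlapped for all 9, while 0.108% of all genes had groups that did not overlap. Rgs9 had the lowest value, with 29.1 ± 31.4 CPM in PNO and 43.2 ± 51.0 in SAL (mean ± SD, n = 6) and a log2 fold change of -0.57 (SE 0.79, edgeR adjusted p = 0.920). For Gpr6 it was 0.083 (SE 0.41, edgeR adjusted p = 0.979). The direction rested on single pups: without SAL 1, 8 of 9 members were higher in PNO (median log2 fold change 0.062), and without SAL 3, 5 of 9 were. Without PNO 3 the median was -0.50, with all 9 lower in PNO.

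Between IUO and SAL, all 9 members had a higher fitted mean in IUO, with a median log2 fold change of 0.35 (all genes -0.0073, with 48.0% higher). By edgeR, 0 of 9 passed an adjusted p of 0.05 (background 0%) and 0 of 9 an unadjusted p of 0.05 (background 6.88%). The groups overlapped for all 9 (0.745% of all genes had groups that did not overlap). The largest values were those of Ppp1r1b, at 364 ± 279 CPM in IUO and 225 ± 257 in SAL (mean ± SD, n = 6), with a log2 fold change of 0.70 (SE 0.84, edgeR adjusted p = 0.976), and of Pde10a, at 0.69 (SE 0.48, edgeR adjusted p = 0.891). The smallest was that of Tac1, at 0.18 (SE 0.33, edgeR adjusted p = 0.996). The median was 0.60 without SAL 1 and 0.18 without IUO 2. Without IUO 2, Tac1 (-0.087), Gpr6 (-0.15) and Syndig1l (-0.030) were lower in IUO.

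Between IUO and PNO, all 9 members again had the higher fitted mean in IUO, with a median log2 fold change of 0.55 (all genes -0.00053, with 49.9% higher). By edgeR, 0 of 9 passed an adjusted p of 0.05 (background 0.0637%), and 0 of 9 an unadjusted p of 0.05, a threshold that 15.3% of all genes passed. All 9 had overlapping groups (1.66% of all genes did not). The means ± SD (n = 6) were 69.7 ± 50.2 CPM in IUO and 32.1 ± 39.4 in PNO for Adora2a, with a log2 fold change of 1.12 (SE 0.90, edgeR adjusted p = 0.569). For Ppp1r1b the log2 fold change was 1.11 (SE 0.85), for Rgs9 1.09 (SE 0.79), and for Pde10a 0.88 (SE 0.48, edgeR adjusted p = 0.395, the lowest of the 9). Those of Adcy5 (0.55), Pde1b (0.51), Syndig1l (0.41), Tac1 (0.39) and Gpr6 (0.12) were smaller. The 95% interval of the fold was 0.585 to 8.06 for Adora2a, 0.913 to 3.72 for Pde10a, 0.924 to 2.31 for Adcy5 and 0.595 to 1.98 for Gpr6, so the data allow both no difference and sizeable ones. DESeq2 also passed 0 of 9 in the 3 comparisons, and limma-voom passed 1, Pde10a, in IUO against PNO (log2 fold change 1.52, adjusted p = 0.0404), where it called 2028 of 15703 genes and edgeR 10. DESeq2 called 436 of 15703 genes there, and relative to SAL it called 1 in PNO and 49 in IUO. For IUO against PNO, 5 of 9 members had an unadjusted p under 0.05 with limma-voom (34% of all genes). With a block for the replicate number 6 of 9 did (16.5% of all genes), although the labels do not say that the numbers pair the pups. Left out in turn, no pup gave a member an adjusted p under 0.05 in edgeR. The median log2 fold change of IUO against PNO stayed between 0.41 and 0.80, lowest without IUO 2 and highest without PNO 3. Without PNO 3, 5 of 9 members had an unadjusted p under 0.05 (13.2% of all genes in that fit), and without PNO 1, 2 of 9 did (21.4% of all genes).

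**Figure D5:**
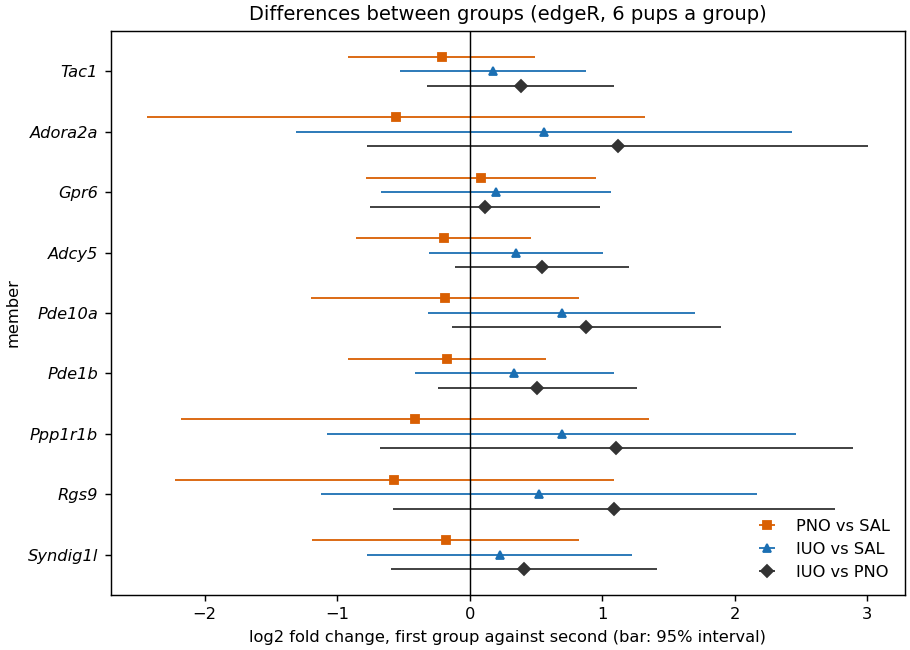
Fitted log2 fold change of each member with its 95% interval from edgeR, relative to SAL for PNO (squares) and IUO (triangles) and relative to PNO for IUO (diamonds), 6 pups a group. Every interval crosses 0, and the widest are those of Adora2a, Ppp1r1b and Rgs9.

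Other genes enriched in medium spiny neurons, 26 that are no members, were examined in the same fit, in which 25 could be tested (all but Ido1). Against SAL, 24 of 25 were lower in PNO (median log2 fold change -0.28, 1 with an unadjusted p under 0.05, background 4.5%) and 23 of 25 higher in IUO (median 0.41, 0 with an unadjusted p under 0.05, background 6.88%). Between IUO and PNO, the median was 0.66, 23 of 25 genes lay higher in IUO, and 7 of 25 had an unadjusted p under 0.05 (background 15.3%) while 0 passed the adjusted threshold. Without SAL 1 the median for PNO against SAL was 0.039. Those with the smallest p in IUO against PNO were transcription factors and a G protein. Meis2, a homeodomain factor, was measured at 57.9 to 266 CPM over the 18 pups, and was 127 to 177 CPM in IUO and 57.9 to 103 CPM in PNO with no overlap, as in 1.66% of all genes (log2 fold change 1.00, SE 0.26, edgeR adjusted p = 0.108). Relative to SAL, its log2 fold change was -0.87 in PNO (edgeR adjusted p = 0.912) and 0.12 in IUO (edgeR adjusted p = 0.996), and its r with the mean of the members was 0.50. Bcl11b (CTIP2), a factor of medium spiny neurons and of deep cortical neurons, had a log2 fold change of 1.00 (edgeR adjusted p = 0.155), Foxp2 0.78 (0.176) and Gnal, the G protein alpha subunit coupled to D1 and A2a receptors, 1.01 (0.253). For the receptors and neuropeptide that define the neurons it was 0.85 for Drd1, 0.84 for Drd2 and 0.57 for Penk, with edgeR adjusted p from 0.470 to 0.686.

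Partners of the members in the cAMP cascade (G proteins, cyclases, kinase subunits, phosphatases and other receptors), many of which are expressed throughout the brain, showed smaller differences. Of 39 tested, 25 were lower and 14 higher in PNO than SAL (median log2 fold change -0.084), 26 higher and 13 lower in IUO than SAL (median 0.046), and 29 higher and 10 lower in IUO than PNO (median 0.14). In IUO against SAL 3 of 39 had an unadjusted p under 0.05 (background 6.88%), in IUO against PNO 5 of 39 did, 4 higher and 1 lower (background 15.3%), and 0 passed the adjusted threshold in any comparison. Csnk1e (casein kinase 1 epsilon) had a log2 fold change of 0.33 between IUO and PNO (edgeR adjusted p = 0.110), Prkar2b (a regulatory subunit of protein kinase A) 0.28 (0.208), the receptor Gpr12 0.28 (0.259), and Gpr3, a relative of Gpr6, -0.39 (0.281). Rgs9bp did not pass the filter, and Gnas is listed under 2 identifiers.

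Among the 10 genes whose levels followed the mean of the 9 members most closely over the 18 pups were Drd1 (Pearson r 0.99), Gpr52 (0.97), Rarb (0.97), Htr6 (0.96), Scn4b (0.96), Entpd3 (0.95), Drd2 (0.94), Kremen1 (0.94) and Lamb3 (0.94). The 10 were the highest of 15694 genes, of which 78 had an r above 0.8 and 9 an r below -0.8, and 5 of the 10 are on the list of other medium spiny neuron genes. They are given as a description with no test. Over that list of 25 the median r was 0.86, and 15 were above 0.8. Directions shared by these 25 and the members are thus not independent results either. Rgs4, which is abundant in cortical neurons, had the lowest, at -0.31.

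Markers of other cells were summed beside these results. The 8 oligodendrocyte markers were lower in IUO than PNO in 8 of 8 (median log2 fold change -1.42), all 8 with an unadjusted p under 0.05 (background 15.3%) and 0 with an adjusted p under 0.05 in edgeR. Relative to SAL, all 8 were higher in PNO (median 0.76, 1 with an unadjusted p under 0.05, background 4.5%) and all 8 lower in IUO (median -0.68, 1 with an unadjusted p under 0.05, background 6.88%). Their summed level was 1679 to 9151 CPM in SAL, 2848 to 14628 CPM in PNO and 2143 to 5498 CPM in IUO, and in each of the 3 comparisons the median of these markers had the opposite sign to that of the members. Pup by pup, r of the oligodendrocyte score with the members was -0.15 to 0.44 over all 18 pups, -0.20 to 0.72 within SAL, -0.25 (Gpr6) to 0.69 within PNO and 0.62 to 0.97 within IUO. With the oligodendrocyte score as a covariate the median log2 fold change of the members moved to -0.64 in PNO and 0.71 in IUO relative to SAL, and to 1.48 in IUO relative to PNO. Then 3, 1 and 8 of the 9 had an unadjusted p under 0.05, against 3.31%, 7.54% and 9.32% of all genes in the same fit, while 0 passed the adjusted threshold (lowest edgeR adjusted p = 0.256). The summed level of 10 projection neuron markers was 1751 to 4592 CPM in SAL, 2235 to 5389 CPM in PNO and 2251 to 3568 CPM in IUO. Markers of cholinergic neurons, 4 genes with Chat among them, summed to 6.76 to 63.9 CPM in SAL, 7.22 to 60.8 CPM in PNO and 10.3 to 51.0 CPM in IUO. The 6 choroid plexus markers were higher in PNO than SAL in 6 of 6 (median log2 fold change 0.45), lower in IUO than SAL in 5 of 6 (median -0.59) and lower in IUO than PNO in 6 of 6 (median -1.04, in each case 0 with an unadjusted p under 0.05 in edgeR) and summed to 5.91 to 544 CPM in SAL, 8.15 to 964 CPM in PNO and 5.95 to 257 CPM in IUO. Of 8 interneuron markers, Pvalb (parvalbumin) was called between IUO and PNO, with the lower level in IUO (log2 fold change -2.34, SE 0.41, edgeR adjusted p = 0.0356, background 0.0637%), and the list's median was 0.046. Pvalb was also lower in IUO than SAL at an unadjusted p under 0.05 (background 6.88%), with a log2 fold change of -1.55 (edgeR adjusted p = 0.343). Of 6 astrocyte markers, 3 were lower in IUO than PNO with an unadjusted p under 0.05 (background 15.3%, list median -0.15). Of 6 microglia markers, Tmem119 was lower at an unadjusted p under 0.05 in IUO than in SAL (background 6.88%) and PNO (background 15.3%), and P2ry12 in PNO than in SAL (background 4.5%). Of 3 olfactory bulb markers tested, 3 were lower in IUO (background 6.88%) and 2 in PNO (background 4.5%) than in SAL at an unadjusted p under 0.05. The summed level of the 4 listed was 709 CPM in SAL 6, 115 CPM in SAL 1 and 20.1 to 61.3 CPM in the other 16 pups. Without SAL 6 the median log2 fold change of the members was -0.35 for PNO and 0.27 for IUO, each relative to SAL. No marker list had a gene at 0 in all pups. All 8 markers behind the oligodendrocyte covariate were themselves lower in IUO than PNO, so the covariate fit cannot tell the score apart from the group. The part of these cells in the differences between the groups was not tested.

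Each member was set against 10 measures of the libraries, namely the total count and 9 marker scores, which gave 90 relations chosen after the data were seen. The cholinergic score had r of 0.39 to 0.74 with the members, and 5 of 9 passed after adjustment over the 90. For Rgs9 it was r 0.73 (permutation p = 0.00069, adjusted 0.0175) and rho 0.81, with 0.74 without the 2 pups farthest from the median, and 0.88, 0.53 and 0.48 within SAL, PNO and IUO. Over the 9 members the r within groups was 0.51 to 0.93 in SAL, -0.32 (Gpr6) to 0.77 in PNO and 0.073 (Pde10a) to 0.52 in IUO. Of the other measures only the total count gave a relation that passed, and only with Gpr6, which was higher in the pups with fewer counts (r -0.76, permutation p = 0.0004, adjusted 0.0175, rho -0.68). That r was -0.74 without the 2 farthest pups, and -0.79, -0.72 and -0.82 within SAL, PNO and IUO. The other 8 members had r of -0.45 to -0.11 with the total count over all pups, but the members' median r was -0.82 within SAL and -0.79 within IUO, against 0.21 within PNO. The part of sequencing depth in these levels was not tested. The choroid plexus score had r of 0.21 to 0.52 over all pups, and 0 of 9 passed. Its r was 0.57 to 0.89 within SAL, -0.12 (Gpr6) to 0.93 within PNO and -0.42 to -0.050 within IUO. Summed choroid plexus markers were 211 CPM in SAL 1, 544 in SAL 3, 964 in PNO 1 and 536 in PNO 3. The other SAL and PNO pups were at or below 136.5 CPM. The part of choroid plexus in the levels was not tested.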

How the data were processed

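Per the paper, total RNA from the PFC of each pup was made into an Illumina TruSeq library, and all 18 libraries were pooled on a flow cell. For each pup the authors deposited a file holding an expected count per gene (reads of ambiguous origin divided among genes by a model), together with TPM and FPKM, both scaled by the authors to transcript length and library size. The aligner, counter, annotation and genome build are not given in the sources used here. FPKM was not used, and TPM served for levels between genes and as an alternative scaling.

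After rounding, the expected counts entered edgeR 4.0.16 under R 4.3.3 (TMM, filterByExpr by group, glmQLFit and glmQLFTest, 1 model of 3 groups, two-sided, Benjamini-Hochberg adjustment over 15703 genes). The log2 CPM used a prior count of 2. The p-values measure the spread between the pups sampled. No library pair of a group agreed within sampling noise. DESeq2 1.42.0, limma 3.58.1 (voom with quality weights), other scalings, no filter, 12 pups only, a replicate block, an oligodendrocyte covariate and each pup left out were alternatives. The fit was tested on simulated data. Correlations and permutations used scipy 1.17.1 and numpy 2.4.6, tables pandas 2.3.3 (Python 3.11.15) and figures matplotlib 3.10.9.

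The members, the gene lists and the rule for named genes were chosen with earlier results of these data known. Named were all 9 members, the 4 genes of the medium spiny neuron list and of the cAMP list with the smallest p between IUO and PNO, defining genes of these neurons, and the 10 genes that followed the members most closely. A gene that the rule names is not reported here.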

Additional observations from a re-analysis of the deposited data

How the results depend on the processing

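Of 216 values under settings other than leaving out a pup, 210 kept their direction and side of the threshold, 5 changed direction and 1 passed the threshold. Limma-voom passed 1 member in IUO against PNO (Pde10a, log2 fold change 1.52, adjusted p = 0.0404), where the lowest adjusted p of a member ranged from 0.164 to 0.473 in the other settings, and the cause was not tested. Changes of direction were those of Gpr6 in PNO against SAL (-0.094 with the oligodendrocyte covariate, -0.080 with limma-voom), and with limma-voom those of Tac1 (-0.13) and Gpr6 (-0.14) in IUO against SAL and Gpr6 (-0.060) in IUO against PNO.

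Of 324 values with a pup left out, 304 kept direction and side and 20 changed direction, and no member passed. For PNO against SAL the log2 fold change ranged from -1.33 to 0.030 for Rgs9, -1.41 to 0.14 for Adora2a, -1.30 to 0.14 for Ppp1r1b, -0.54 to 0.058 for Pde10a, -0.40 to 0.057 for Pde1b, -0.37 to 0.062 for Adcy5, -0.57 to 0.18 for Syndig1l and -0.15 to 0.33 for Gpr6, with the median of the other medium spiny neuron genes at -0.54 to 0.039. Except for Gpr6 (without SAL 5, SAL 6 or PNO 3), these turned without SAL 1, and Ppp1r1b, Pde10a, Pde1b and Syndig1l also without SAL 3. For IUO against SAL the range was -0.087 to 0.36 for Tac1, -0.15 to 0.44 for Gpr6 and -0.030 to 0.58 for Syndig1l, all turned without IUO 2. For IUO against PNO it was -0.23 to 0.35 for Gpr6, turned without PNO 6, IUO 1 or IUO 2.

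The labels do not say whether the replicate numbers pair the pups. Same-numbered deviations had a mean r of 0.23, -0.027 and 0.063 in the 3 comparisons. With the replicate block 0 members passed, and 0, 4 and 6 of 9 had an unadjusted p under 0.05 (4.62%, 7.44% and 16.5% of all genes in the same fits), with median log2 fold changes of -0.16, 0.52 and 0.68; pups were most alike to their own number in 2, 0 and 2 of 6 cases. The median r between members was 0.84 to 0.88 with a pup left out and 0.87 on TPM. Between 101 and 16576 counts lie behind each value of a member, so counting error is small beside the spread between pups.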
